A study of Mus musculus with 12 samples.

Results

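The nuclear genes that encode subunits of oxidative phosphorylation complexes I to V were measured in the left atrium (LA) after cardiomyocyte Notch activation. They were chosen by gene name alone (*Nduf* a, b, c, s and v with a number, *Sdha* to *Sdhd*, *Uqcr*, *Cyc1*, *Cox4* to *Cox8* followed by a, b or c, and *Atp5*), with names marked as pseudogenes left out. The rule gave 87 of 54658 gene names, 40 for complex I, 4 for complex II, 9 for complex III, 17 for complex IV and 17 for complex V. Of these, 81 had more than 1 CPM (reads of the gene scaled to library depth) in at least 6 of the 12 libraries and were tested among 13541 genes in all. The 6 below that level, *Ndufa11b*, *Ndufb4c*, *Ndufs6b*, *Cox6c2*, *Cox7b2* and *Cox8c*, reached at most 0.45 CPM in any library, and *Ndufb4c* and *Cox8c* had no count in any. Groups of names are not groups of function throughout: *Cox7a2l* encodes a supercomplex assembly factor, and *Cox4i1*, *Cox4i2* and *Ndufab1* encode subunits but escape the rule.

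The Control group was 6 mice that carried amHC-rtTA, in which the α-myosin heavy chain promoter drives the reverse tetracycline transactivator in cardiomyocytes. The iNICD group was 6 littermates that carried amHC-rtTA and TetO-NICD, from which the transactivator, bound to doxycycline, induces NICD, the intracellular domain of Notch1. All mice were 2 to 3 months old when doxycycline chow began, ate it for 3 weeks and had no washout, so that the Control mice shared the transactivator and the drug. The colony was of mixed background. Of the Control mice 4 were female and 2 male, of the iNICD mice 3 and 3. Every LA gave 1 library of whole tissue, with no sorting of cells. The transgene is expressed in cardiomyocytes, whereas the RNA came from all cells of the LA; in such bulk RNA, fewer cells of a type and less RNA per cell cannot be told apart.

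Mitochondria make ATP by passing electrons through complexes I to IV, of which I, III and IV pump protons across the inner membrane. The protons return through complex V, the ATP synthase. Complex II holds only nuclear-encoded subunits, whereas the others combine nuclear subunits with subunits encoded by mitochondrial DNA. The heart depends on this pathway for almost all of its ATP, and heart and skeletal muscle use their own isoforms of several small subunits of complex IV.

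The libraries held between 21432632 and 27182038 counts on genes. *Notch1*, the source of the transgene, lay between 109 and 131 normalized CPM in Control libraries and between 2975 and 4077 in iNICD libraries. Sex labels were matched by *Xist* and 4 genes of the Y chromosome in 12 of 12 libraries. Control replicate 5 stood apart on the first principal component, at -77.4 against -20.2 to 7.98 for the other Control libraries, and values without it are given for the main results. The summed level of 10 cardiomyocyte markers lay between 71107 and 87372 normalized CPM in Control libraries (to 76903 without Control replicate 5) and between 62957 and 73326 in iNICD libraries, and the median of their log2 fold changes was -0.17. Of these markers *Tnnt2*, at -0.44, and *Myl7*, the atrial regulatory light chain, at -0.54, were lower (adjusted p = 0.0153 and 0.0367). None of the 8 fibroblast, 8 endothelial, 8 macrophage, 8 mesothelial or 3 tested adipocyte markers changed in edgeR; at an unadjusted p under 0.05 there was 1 each among fibroblast and endothelial markers, and DESeq2 called 1 endothelial marker. Of 8 smooth muscle and pericyte markers *Cspg4* was higher. For comparison, 4.12% of all tested genes changed in edgeR and 17.4% had an unadjusted p under 0.05. The part that cell composition plays in the values below was not tested.

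Transcripts of these subunits made up 2.30% to 2.82% of all counts in Control libraries and 2.47% to 2.89% in iNICD libraries. Gene length, for 83 of 87 names the union of all annotated exons, can exceed that of the transcripts present and lower a level per kb. Levels are compared between genes as normalized CPM per kilobase of this length. In the Control LA the highest were *Atp5a1* at 1102 ± 78.9 and *Atp5b* at 1049.7 ± 85.3 per kb (SD, n = 6), which encode the α and β subunits of the catalytic head of complex V, and *Cox6a2* at 1088.3 ± 128, the muscle isoform of a complex IV subunit. The spreads of these 3 levels overlapped. *Atp5a1* and *Atp5b* together held 30.7% of the summed normalized CPM of the 81 genes. The medians per kb were 100.2 for complex I, 187 for complex II, 208 for complex III, 148 for complex IV and 129.6 for complex V, against ranges within complexes that ran from 7.50 to 273.5 for complex I and from 1.01 to 1102 for complex V. Complexes II and III had the narrowest ranges, from 111 to 222 and from 84.3 to 302.

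**Figure D1:**
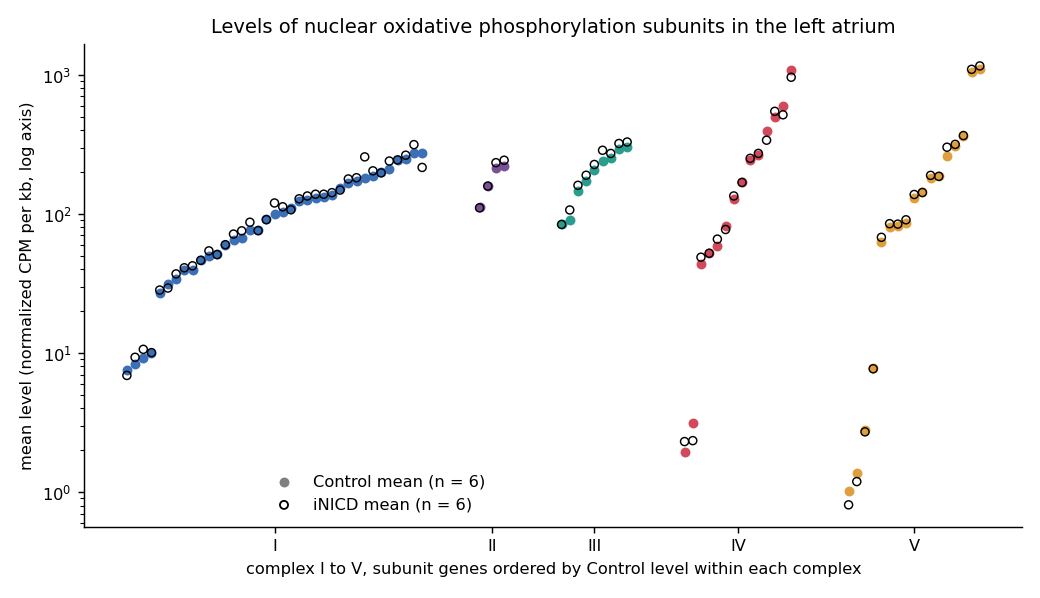
Mean level of each of the 81 tested subunit genes in normalized CPM per kb on a log axis, with Control means (n = 6) as filled points and iNICD means (n = 6) as open circles, ordered by Control level within complexes I to V. Of the Control means 71 lie between 26.9 and 1102 per kb, and 10, of complexes I, IV and V, lie below 15.

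The 10 genes below 15 per kb included *Atp5g2*, *Cox7c* and *Ndufb4*, and for 5 of the 10 fewer than 90% of their 50-base windows, the read length, were unique among annotated transcripts. Over all 81 genes, 11 had such shared sequence, among them *Atp5g2* with 63.3% unique windows, *Uqcrb* with 74.6%, *Cox7c* with 77.9%, *Ndufs5* with 78.3% and *Atp5h* with 80.1%. Their median level was 26.9 per kb, against 145 per kb for the 70 others. Processed pseudogenes of these subunits are common in the mouse genome, and reads that fit several places can be lost or split in counting, so the levels of these 11 genes, and their fold changes, are uncertain. *Ndufb2*, also below 15 per kb, had 56.6 normalized CPM in Control libraries over a length of 5628 bases, with 99.8% unique windows.

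In iNICD libraries 1 of the 81 subunit genes was higher and 1 was lower at an adjusted p under 0.05, both named as complex I subunits. *Ndufa8* rose 1.41-fold and *Ndufa4* fell to 0.79 of its Control level, and no gene placed by name in complexes II, III, IV or V passed. Tests used the quasi-likelihood method of edgeR, two-sided, with Benjamini-Hochberg adjustment over the 13541 tested genes. The 2 called genes are 2.47% of the 81, against 4.12% of all tested genes (2.78% higher and 1.34% lower). DESeq2 and the exact test of edgeR each called 2 genes named for complex I and 0 named for the other complexes. Over all tested genes DESeq2 called 615 higher and 444 lower, and the exact test 491 and 279. At an unadjusted p under 0.05 there were 7 of 37 genes in complex I, 0 of 4 in complex II, 2 of 9 in complex III, 2 of 14 in complex IV and 1 of 17 in complex V, in all 12 (14.8%), against 17.4% of all tested genes.

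*Ndufa8* encodes an accessory subunit of complex I on the side of the intermembrane space. The gene is on the minus strand of chromosome 2 between positions 36036326 and 36049406 (GRCm38, mm10). Its level in the 6 Control libraries had a lowest value of 147.1, a median of 157 and a highest of 168 normalized CPM, and in the 6 iNICD libraries a lowest of 196, a median of 226 and a highest of 247. All iNICD libraries lay above all Control libraries; groups without overlap were found for 2 of the 81 genes and for 3.83% of all tested genes. The means were 157 ± 9.13 and 221 ± 19.5 (SD, n = 6 per group). This is 0.49 on the log2 scale (standard error 0.07, 95% interval 0.35 to 0.64, edgeR adjusted p = 8.84e-04). A two-sided exact permutation test of the libraries gave p = 0.00216, its smallest possible value with 6 per group. The call held in 25 of 26 alternatives and was lost in males alone, where 2 Control libraries were compared with 3 (log2 fold change 0.48). Without Control replicate 5 the log2 fold change was 0.51. Of 12 other tested genes within 1 Mb of *Ndufa8* on either side 10 had positive estimates, their median being 0.27 on the log2 scale, and *Stom* changed. Within 4 Mb 44 of 77 genes had positive estimates, with a median of 0.05, and 13 were higher and 1 lower, against 4.12% of all tested genes in both directions. These windows were chosen after the value of *Ndufa8* was seen, and the part of the chromosomal neighbourhood in its change was not tested.

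*Ndufa4* was first purified with complex I and named for it, and its protein is now regarded as a subunit of complex IV. The gene is on the minus strand of chromosome 6 between positions 11900292 and 11907497. The Control libraries ran from 333 through a median of 370.0 to 426 normalized CPM, and the iNICD libraries from 270.4 through a median of 297 to 325. All iNICD libraries lay below all Control libraries. The means were 378 ± 36.5 and 298 ± 20.9 (SD, n = 6 per group), a difference of -0.34 on the log2 scale (standard error 0.07, 95% interval -0.50 to -0.18, edgeR adjusted p = 0.0214). The exact permutation test again gave its smallest p, 0.00216. Before the decrease it had, at 273.5 per kb, the highest Control level of the genes named for complex I. The call held in 22 of 26 alternatives. It was lost in males alone (log2 fold change -0.43, adjusted p = 0.553) and without iNICD replicate 1, 2 or 3 (log2 fold change -0.33, -0.31 and -0.33, adjusted p = 0.0566, 0.0508 and 0.0532). Without Control replicate 5 it was -0.31. Its paralog *Ndufa4l2*, known as a hypoxia-inducible gene, was at 9.09 ± 1.34 and 10.2 ± 1.33 normalized CPM (SD, n = 6 per group), with a log2 fold change of 0.17 and an adjusted p of 0.52. The log2 fold change of *Ndufa4l2* was 0.09 without Control replicate 5, 0.37 in males alone and -0.00671 in females alone. *Ndufa4* held 96.2% to 98.1% of the 2 transcripts per kb in Control libraries and 95.2% to 96.6% in iNICD libraries, ranges that overlap.

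**Figure D2:**
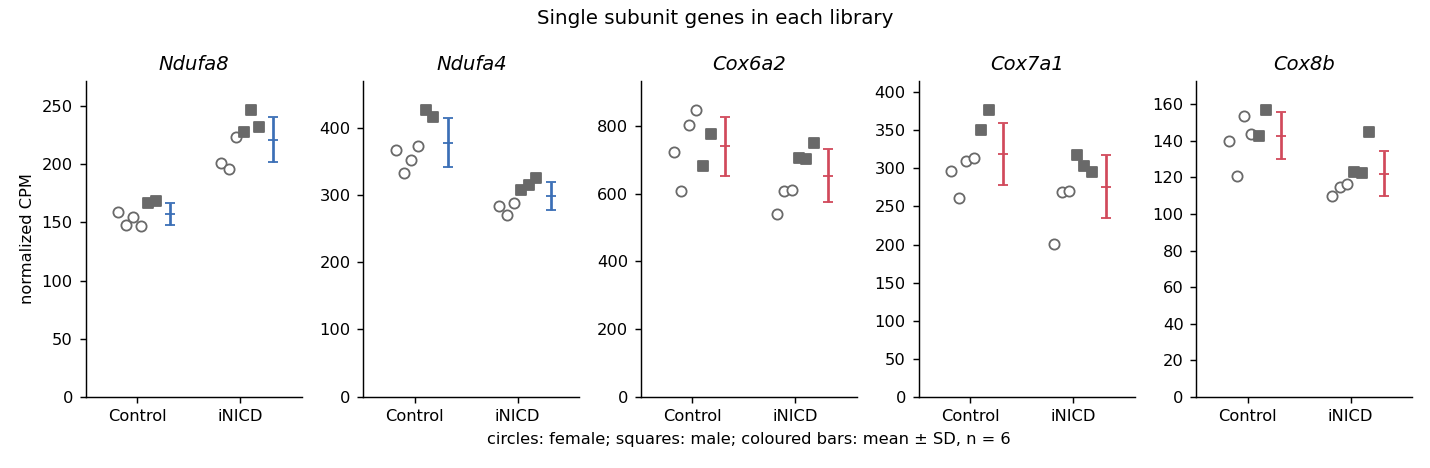
Normalized CPM in each library for *Ndufa8*, *Ndufa4* and the muscle isoforms *Cox6a2*, *Cox7a1* and *Cox8b* of complex IV, with female mice as circles, male mice as squares and mean ± SD (n = 6) as coloured bars, on axes that start at 0. The groups do not overlap for *Ndufa8* and *Ndufa4* and overlap for the other genes.

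The promoters of *Ndufa8* and *Ndufa4* are shown because these genes alone passed, in opposite directions, and because nuclear subunit genes are known to share binding motifs for nuclear respiratory factors. Sequences are from RefSeq on GRCm38.p6, 250 bases before to 50 after the annotated start, 5′ to 3′ on the strand of the gene. They lie at chr2:36049289-36049588 on the minus strand for *Ndufa8* and at chr6:11907401-11907700 on the minus strand for *Ndufa4*, and capitals mark matches to the NRF1 pattern CGCANGCG on either strand.
Ndufa8: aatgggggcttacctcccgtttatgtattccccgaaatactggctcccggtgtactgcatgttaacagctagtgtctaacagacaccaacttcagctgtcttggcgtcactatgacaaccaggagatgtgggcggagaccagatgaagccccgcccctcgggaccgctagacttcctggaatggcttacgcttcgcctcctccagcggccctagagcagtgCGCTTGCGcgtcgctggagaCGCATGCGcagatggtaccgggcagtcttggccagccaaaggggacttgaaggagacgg
Ndufa4: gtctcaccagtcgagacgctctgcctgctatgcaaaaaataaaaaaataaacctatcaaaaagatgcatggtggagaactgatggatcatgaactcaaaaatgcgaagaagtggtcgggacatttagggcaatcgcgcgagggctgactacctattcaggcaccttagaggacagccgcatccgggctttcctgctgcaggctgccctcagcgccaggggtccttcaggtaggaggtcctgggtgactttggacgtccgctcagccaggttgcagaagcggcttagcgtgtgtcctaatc
The *Ndufa8* promoter held 2 stretches that match this pattern, 1 of them on both strands, and the *Ndufa4* promoter held none.

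Windows of this length were found for 67 of the 81 genes, 72 in all, and for 32851 starts over the whole annotation. The NRF1 pattern was in 38.9% of the subunit windows and 8.21% of all windows. The GABPA (NRF2) pattern CCGGAAG was in 22.2% against 8.86%, the YY1 pattern AAGATGGC in 13.9% against 2.75%, and the ERR pattern AAGGTCA in 11.1% against 4.72%. TGGGAA, the core of the RBPJ motif through which Notch acts on DNA, was in 20.8% against 25.6% and in neither window printed above. By complex, the NRF1 pattern was found for 10 genes of complex I, 2 of complex II, 3 of complex III, 1 of complex IV and 9 of complex V, and the YY1 pattern for 7 genes of complex I and 3 of complex V. All patterns were searched on both strands, and a match of letters is a description of the window, not a binding site.

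Taking each complex as a whole, the median log2 fold change was 0.08 for complex I, 0.06 for complex II, 0.12 for complex III, 0.02 for complex IV and 0.05 for complex V, against -0.01 for all tested genes. Estimates were above 0 for 26 of 37, 2 of 4, 8 of 9, 8 of 14 and 11 of 17 genes, in all 67.9% against 48.7% of all tested genes. These medians were smaller than or near the spread between Control libraries, in which the median deviation of a complex from the Control mean had an SD of 0.10 to 0.12 on the log2 scale. In single libraries the median deviation ran from -0.17 to 0.12 in Control and from -0.08 to 0.18 in iNICD libraries for complex I, from -0.15 to 0.18 and from -0.02 to 0.31 for complex III, and from -0.23 to 0.07 and from -0.12 to 0.12 for complex IV. The groups of 6 overlapped in each of the 5 complexes. Within each sex those of complex III did not: females ran from -0.15 to -0.02 in Control (n = 4) and from -0.02 to 0.08 in iNICD libraries (n = 3), the nearest values being -0.0241 and -0.0207, and males from 0.12 to 0.18 (n = 2) and from 0.22 to 0.31 (n = 3). Complexes I and IV overlapped in females and not in males, and complexes II and V in both; these differences within a sex were not tested. The Control SDs hold both sexes, and for complex III that of the 4 female Control libraries was 0.05. Control replicate 2 was the lowest library in all 5; without it the medians were 0.04, 0.01, 0.08, -0.01 and 0.01. Without Control replicate 5 they were 0.11, 0.07, 0.16, 0.04 and 0.06.

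**Figure D3:**
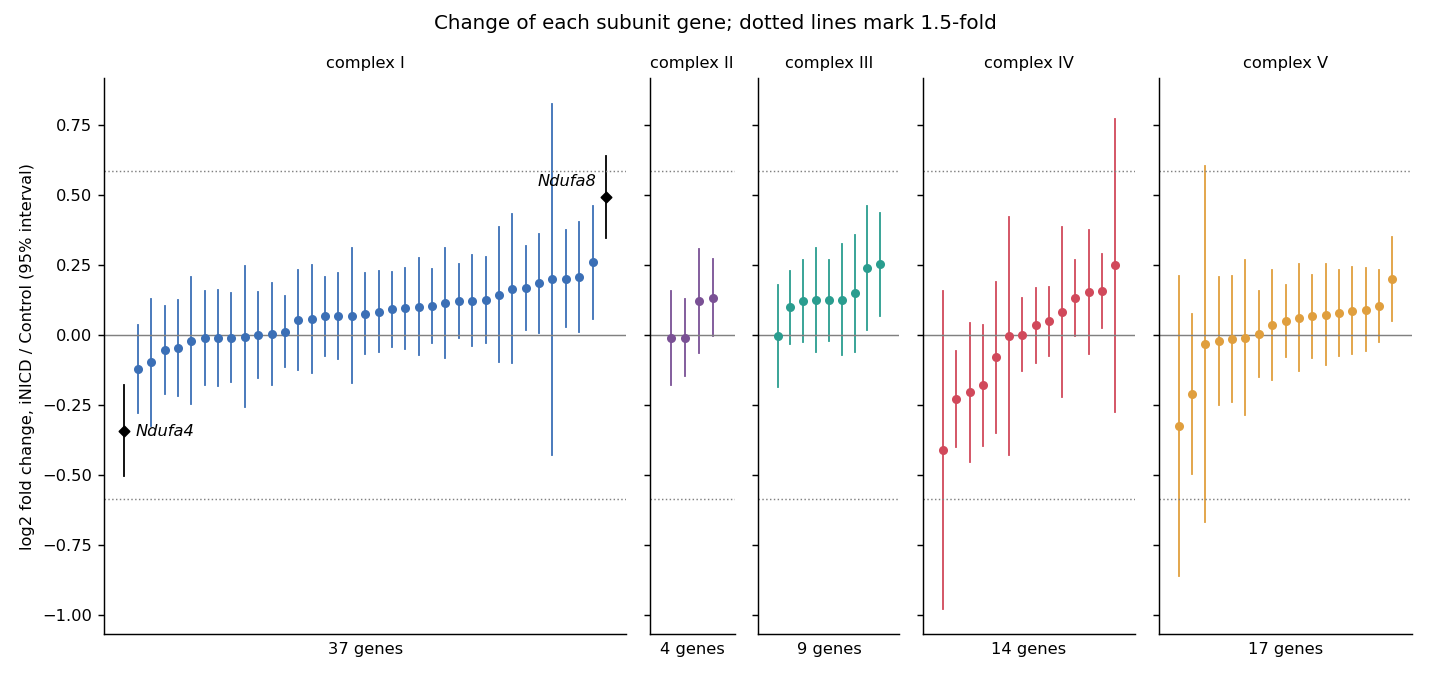
Log2 fold change of each tested subunit gene, iNICD over Control, with its 95% interval, ordered within complexes I to V, with black diamonds for the 2 genes past the threshold and dotted lines at 1.5-fold in either direction. Most intervals cross 0 and lie inside the dotted lines.

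Precision was high enough to bound most changes. The 95% interval of the fold change lay within 1.5-fold in either direction for 75 of the 81 genes (92.6%), against 68.4% of all tested genes, and within 1.25-fold for 54. The exceptions were *Ndufa8* and 5 genes of low level or shared sequence, *Ndufs5*, *Cox6b2*, *Cox7c*, *Atp5g1* and *Atp5g2*. The 79 genes that did not pass had adjusted p-values from 0.135 to 0.997, which does not show that their levels were equal.

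Among the other subunits of complex I, *Ndufa10*, an accessory subunit, had the highest estimate after *Ndufa8*, at 0.26 (adjusted p = 0.162), and with sex as a covariate it passed, at 0.21 (adjusted p = 0.0336). The core subunit *Ndufs1* of the electron-transferring arm stood in Control libraries at 620 ± 58.1 normalized CPM and in iNICD libraries at 704 ± 62.0 (SD, n = 6), with an adjusted p of 0.266. The flavoprotein genes *Ndufv1* and *Ndufv2*, where NADH gives up its electrons, had log2 fold changes of -0.01 and 0.06. *Ndufa10*, *Ndufs1*, *Ndufv1* and *Ndufv2* were named here after their values were seen.

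Complex II links the chain to the citric acid cycle. *Sdhd*, a membrane anchor and the gene with the highest estimate of the complex, was at 273 ± 20.4 and 299 ± 17.3 normalized CPM (SD, n = 6 per group, log2 fold change 0.13, adjusted p = 0.308). *Sdhb*, the iron-sulfur subunit, had the lowest estimate at -0.01, which turned to 0.01 when only library totals set the scale. All 4 intervals lay within 1.25-fold.

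Complex III had the highest median of the 5 complexes, and none of its 9 genes passed. *Uqcrc2*, a core protein of the matrix side, ran from 553 through a median of 595 to 719 normalized CPM in Control libraries and from 649 through a median of 732 to 819.5 in iNICD libraries, so that the groups overlapped. Its means were 615 ± 67.0 and 732 ± 63.9 (SD, n = 6 per group), with a log2 fold change of 0.25, a standard error of 0.09 and an adjusted p of 0.135. It passed in 2 alternatives, with library totals alone (log2 fold change 0.28, adjusted p = 0.0301) and without Control replicate 5 (0.30). The Rieske protein gene *Uqcrfs1*, the gene of the complex with the highest Control level per kb, had 411 ± 42.1 and 448 ± 44.7 normalized CPM and a log2 fold change of 0.12, which was 0.08 without Control replicate 2 or iNICD replicate 4 and 0.06 in males alone. *Uqcrb*, with the lowest estimate at -0.01, was 0.02 with library totals alone.

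In complex IV the log2 fold changes of the muscle isoforms lay between -0.23 and -0.18 and those of their ubiquitous counterparts between -0.08 and 0.08, and none passed. The muscle isoform *Cox6a2* ran from 608 through 750.4 to 848 normalized CPM in Control libraries and from 540 through 658 to 749.5 in iNICD libraries (lowest, median and highest), with a log2 fold change of -0.18 (adjusted p = 0.379). *Cox7a1* had means of 318 ± 40.7 and 276 ± 41.6 and a log2 fold change of -0.21 (adjusted p = 0.378), and *Cox8b* means of 143 ± 12.8 and 122 ± 12.3 (SD, n = 6 per group) and one of -0.23 (adjusted p = 0.147). The estimate for *Cox6a2* was -0.34 in females alone and -0.03 in males alone, and that for *Cox7a1* was -0.13 without iNICD replicate 1. The counterparts *Cox6a1*, *Cox7a2* and *Cox8a*, which other tissues use, had log2 fold changes of -0.08, 0.05 and 0.08, of which that of *Cox8a* turned to -0.19 in females alone and that of *Cox6a1* to 0.04 without Control replicate 5. The cardiomyocyte markers had a median of -0.17 in the same libraries, and the part of cell composition in these values was not tested. Per kb, *Cox6a2* held 89.7% to 94.7% of the *Cox6a* transcripts in Control libraries and 91.0% to 93.7% in iNICD libraries. *Cox7a1* held 68.8% to 74.5% and 61.8% to 69.0% of the *Cox7a* pair, with medians of 70.6% and 67.7%, and *Cox8b* 70.3% to 78.6% and 68.6% to 74.5% of the *Cox8* pair, with medians of 76.1% and 71.9%. The ranges overlapped in each family, narrowly for *Cox7a1*. *Cox6b1* held 99.4% to 99.7% in Control and 99.3% to 99.8% in iNICD libraries beside *Cox6b2*, known as a testis isoform, which was at 2.15 ± 0.44 normalized CPM in Control libraries. *Cox6b2* and *Cox7c* had the highest and lowest estimates of the complex, 0.25 and -0.41, with standard errors of 0.24 and 0.26 and adjusted p-values of 0.636 and 0.449. They moved to 0.08 without iNICD replicate 1 and to -0.26 without Control replicate 1. Counting *Ndufa4* with complex IV moved the median of complex IV from 0.02 to 0.001 and left that of complex I at 0.08.

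In complex V the Control and iNICD means of *Atp5a1* were 3455 ± 247 and 3632 ± 337 normalized CPM, and those of *Atp5b* 4448 ± 361 and 4640.1 ± 468 (SD, n = 6 per group), with log2 fold changes of 0.07 and 0.06, that of *Atp5a1* falling between 0.02 in females alone and 0.11 without iNICD replicate 1, and at 0.03 without Control replicate 2 and 0.04 without iNICD replicate 4. *Atp5k*, which encodes subunit e at the dimer interface, had the highest estimate at 0.20 (162 ± 14.5 and 186 ± 11.7, adjusted p = 0.144). *Atp5g1*, *Atp5g2* and *Atp5g3* encode the same mature c subunit of the rotor, and *Atp5g3* held 98.3% to 99.2% of their transcripts per kb in Control libraries and 98.6% to 99.3% in iNICD libraries. Unique windows were 88.9% for *Atp5g1* and 63.3% for *Atp5g2* against 100% for *Atp5g3*. Reads of *Atp5g1* and *Atp5g2* can thus be lost in counting, and the share of *Atp5g3* is uncertain. *Atp5g3* had a log2 fold change of 0.03, *Atp5g1* of -0.03 and *Atp5g2* of -0.33, the last at 1.70 ± 0.50 and 1.36 ± 0.38 normalized CPM. The estimate for *Atp5g2* ran from -0.43 to -0.17 with a library left out, the latter without Control replicate 1, and was -0.19 without iNICD replicate 4. The sign for *Atp5g3* turned with sex as a covariate (-0.01). For *Atp5g1* the estimate was -0.76 in females alone and 0.65 in males alone (adjusted p = 0.257 and 0.762), and it turned to 0.13 without Control replicate 3, 0.13 without iNICD replicate 2 and 0.09 without iNICD replicate 3.

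Library by library, the medians of the complexes separated by the sex of the mouse, a comparison made after the values by library were seen. The median deviation of complex I from the Control mean ran from -0.17 to 0.03 in the 7 female libraries and from 0.11 to 0.18 in the 5 male libraries. For complex III it ran from -0.15 to 0.08 and from 0.12 to 0.31, for complex IV from -0.23 to 0.03 and from 0.06 to 0.12, and for complex V from -0.18 to 0.01 and from 0.04 to 0.16. Male and female libraries did not overlap in these 4 complexes and overlapped in complex II, where females ran from -0.16 to 0.03 and males from -0.001 to 0.17. By the numbers of the titles the male mice come last in both groups, whereas by those of the descriptions 1 Control male comes before the last Control female.

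**Figure D4:**
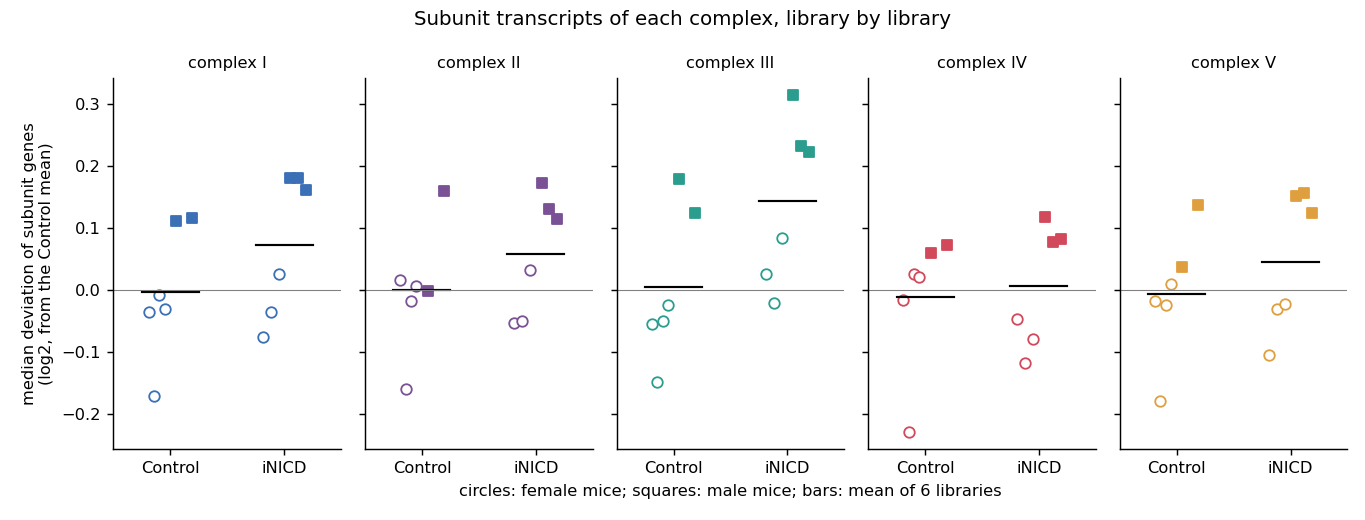
Median log2 deviation of the tested subunit genes of each complex from their Control mean, 1 point per library, with female mice as open circles, male mice as filled squares and the mean of 6 libraries as bars. Squares lie above circles in complexes I, III, IV and V in both groups, and Control and iNICD points overlap in each complex.

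With genotype and sex in 1 edgeR model, 76 of the 81 genes had a positive estimate in males over females (93.8%, against 51.3% of all tested genes), with a median log2 difference of 0.17, or 1.12-fold, against 0.01 for all tested genes. The medians were 0.19, 0.15, 0.23, 0.14 and 0.16 for complexes I to V. Without Control replicate 5, a male, 76 of 81 genes had a positive estimate. Their median was then 0.19, against -0.01 for all tested genes. At an unadjusted p under 0.05 there were 55 of 81 genes (67.9%, against 13.9% of all tested genes), but after adjustment 1 gene was called, *Ndufa10*, 1.23% of the 81 against 0.118% of all tested genes higher in males and 0.288% in both directions. *Ndufa10* was at 415 normalized CPM in males and 332 in females, a log2 difference of 0.29 (standard error 0.05, adjusted p = 0.0431). *Uqcrq*, *Cyc1*, *Ndufv2* and *Atp5g3* came next, at differences of 0.31, 0.28, 0.27 and 0.27 with an adjusted p of 0.0523 each. The count of genes higher in males depended on the method: DESeq2 called 39 (48.1%, against 2.05% of the genes it tested), library totals alone 0, and leaving out a library 0 in 11 of 12 fits and 5 without Control replicate 6. No gene was called lower in males in any of these fits. The 5 genes with a negative estimate, *Cox6b2*, *Cox7c*, *Atp5g2*, *Atp5l* and *Atp5s*, had Control means of at most 15.8 normalized CPM.

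The direction was the same within each group. In Control mice 72 of 81 genes had a higher mean in the 2 males than in the 4 females, with a median log2 difference of 0.16, and in iNICD mice 75 of 81 in the 3 males than in the 3 females, with a median of 0.19. With library totals alone 67 of 81 genes had a positive estimate and the median was 0.07, but that scaling moved the median of all tested genes to -0.09, and relative to it the subunit genes stood at 0.16, as they did with TMM scaling. Among genes outside the rule, 7 of 7 tested subunits encoded by mitochondrial DNA, 13 of 15 assembly factors of complex I and 9 of 10 cardiomyocyte markers were above 0 in males, with medians of 0.20, 0.12 and 0.11. So were 9 of 10 assembly factors of complexes II and III, 19 of 23 of complex IV and 3 of 4 of complex V, 4 of 6 genes of a list of further subunits and electron carriers (of which *Atp5mpl* is also in complex V) and 9 of 15 biogenesis regulators, with medians of 0.09, 0.11, 0.22, 0.12 and 0.03. Markers of other cell types had fewer positive estimates, 1 of 8 for mesothelial cells (median -0.31), 2 of 8 for macrophages (-0.14), 3 of 8 for fibroblasts (-0.12), 3 of 8 for endothelial cells (-0.07) and 1 of 3 for adipocytes (-0.14), apart from 7 of 8 for smooth muscle and pericytes (0.23). The part of cell composition in the male and female difference was not tested.

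No subunit gene had a change on Notch activation that differed between the sexes at an adjusted p under 0.05 in edgeR. The same test called 0 of all 13541 tested genes, and the lowest adjusted p was 0.916 in both sets. A test that called no gene cannot show that the change was equal in both sexes. At an unadjusted p under 0.05 there was 1 of 81 subunit genes, *Atp5g1* (0.0106), against 3.7% of all tested genes. With sex as a covariate *Ndufa8* had a log2 fold change of 0.46 (adjusted p = 2.34e-04) and *Ndufa4* of -0.37 (adjusted p = 9.54e-04). *Ndufa10* was the only other subunit gene to pass. The medians of complexes I to V became 0.06, 0.03, 0.09, -0.001 and 0.02, and 50 of 81 genes had a positive estimate in place of 55.

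**Figure D5:**
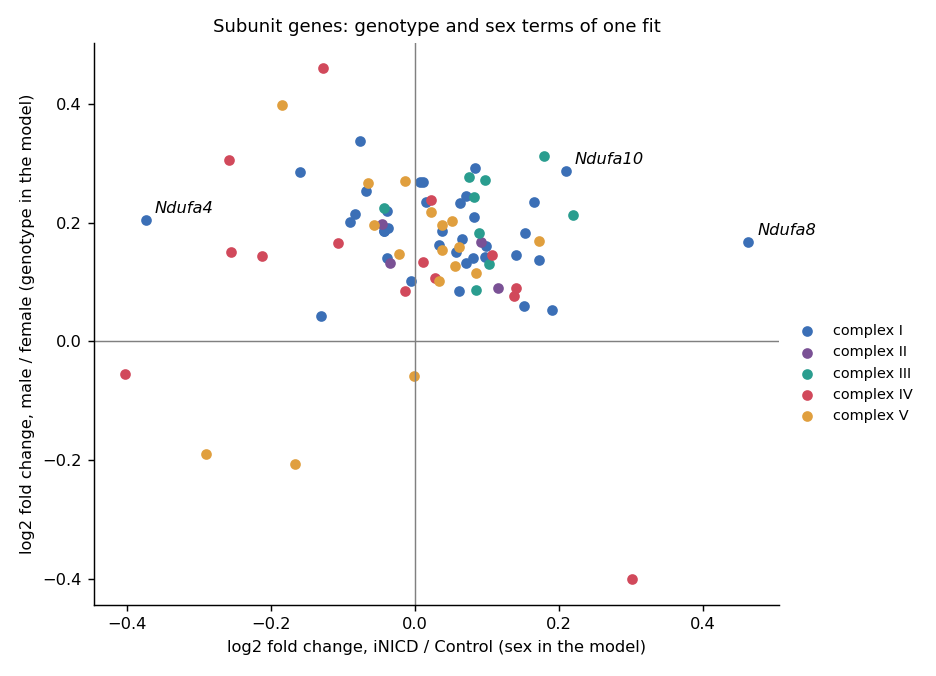
Log2 fold change of each tested subunit gene on genotype (x axis, iNICD over Control) against that on sex (y axis, male over female), both from 1 fit with both terms, coloured by complex. Points scatter about 0 on the x axis with *Ndufa8* at its upper end and *Cox7c* and *Ndufa4* lowest, and 76 of 81 lie above 0 on the y axis.

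The partners of these subunits were read from lists of the same pathway. Of the 13 subunits encoded by mitochondrial DNA, 6 (*mt-Nd3*, *mt-Nd4l*, *mt-Co2*, *mt-Co3*, *mt-Atp6* and *mt-Atp8*) had at most 0.15 normalized CPM in any library, while *mt-Co1* and *mt-Cytb* were at 18975 ± 1932 and 23546 ± 2508 in Control libraries; a heart expresses all 13, so the counts of the 6 are not their levels. The 7 others had log2 fold changes from 0.21 to 0.52 with a median of 0.27, and none passed in edgeR, although 6 had an unadjusted p under 0.05, DESeq2 called 3 and the exact test 2. Their summed level ran from 72534 to 97630 normalized CPM in Control and from 90443 to 111710 in iNICD libraries. Among all 13541 tested genes 4.12% passed in edgeR and 17.4% had an unadjusted p under 0.05. DESeq2 called 615 of all genes higher and 444 lower, and the exact test 491 and 279. Leaving mitochondrial genes out of the totals moved the median of the 81 nuclear genes from 0.07 to 0.06 and left both calls in place.

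Of 6 tested genes in a list of subunits and electron carriers that the rule was thought to miss, none changed (edgeR; 1 at an unadjusted p under 0.05, 0 with DESeq2), with a median of 0.03. One of the 6, *Atp5mpl*, is matched by the rule after all and is counted in complex V. Among all tested genes 4.12% changed in edgeR and 17.4% had an unadjusted p under 0.05. *Cox4i1*, the main isoform of the largest nuclear subunit of complex IV, was at 784 ± 68.7 and 849 ± 47.0 normalized CPM (SD, n = 6 per group), with an adjusted p of 0.435. *Ndufb1-ps*, left out because its name is that of a pseudogene, had 87.8 ± 10.3 and 92.9 ± 3.80 (adjusted p = 0.615).

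No assembly factor passed in edgeR: 0 of 15 for complex I, 0 of 10 for complexes II and III, 0 of 23 for complex IV and 0 of 4 for complex V, with medians of -0.01, 0.02, 0.003 and 0.04. At an unadjusted p under 0.05 there was 1 gene, of complex I, and DESeq2 called none. The shares of all tested genes were 4.12% called in edgeR and 17.4% at an unadjusted p under 0.05.

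Among 15 regulators of mitochondrial biogenesis, 2 were higher and none was lower, with a median of -0.01; of all tested genes 2.78% were higher. *Ppargc1b*, which encodes the coactivator PGC-1β, ran from 7.70 to 11.6 normalized CPM in Control libraries and from 17.1 to 22.5 in iNICD libraries, with means of 10.4 ± 1.45 and 19.1 ± 2.24 (SD, n = 6 per group). On the log2 scale it rose by 0.88 (standard error 0.11, adjusted p = 4.51e-04). *Tfam*, which encodes a factor that packages and transcribes mitochondrial DNA, ran from 44.9 to 47.3 and from 51.2 to 63.1, with means of 45.9 ± 0.85 and 59.1 ± 4.26. Its log2 fold change was 0.36 (standard error 0.06, adjusted p = 0.00245). The groups did not overlap for either gene, as for 3.83% of all tested genes. *Ppargc1a*, for PGC-1α, had 98.3 ± 10.8 and 84.8 ± 7.58 (SD, n = 6 per group), with a log2 fold change of -0.21 and an adjusted p of 0.20, and its groups overlapped. *Ppargc1a*, like *Cox4i1*, was named after its value was seen. In the same libraries the nuclear subunits had a median of 0.07 and those encoded by mitochondrial DNA one of 0.27.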

How the data were processed

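RNA-sequencing counts of 12 left atrial libraries, 6 Control and 6 iNICD, were analysed, with groups, replicate numbers and sex from the sample labels. The authors removed ribosomal RNA, sequenced single-end reads of 50 bases and deposited raw counts per gene name without normalization. The submitters' processing notes name cutadapt, STAR 2.4.2a, Subread featureCounts and edgeR with mm10. The paper's methods describe a route for the LA with TopHat2 and HTSeq that excluded mitochondrial reads. To compare right and left atria, they also describe a route with another version of STAR, Subread and edgeR on mm10. The table does not name its own route, and it does hold mitochondrial genes. The deposited table also gives a gene length in bases from the authors, another unit, used to compare levels between genes. Right atrial libraries were not analysed here.

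Genes above 1 CPM in at least 6 libraries were compared by the quasi-likelihood test of edgeR 4.0.16 (R 4.3.3, TMM, no covariate, two-sided, Benjamini-Hochberg over 13541 genes, threshold 0.05). Normalized CPM are counts over TMM-scaled totals. Standard errors were derived from the F statistic. Each mouse was 1 library. No 2 libraries of a group were copies (lowest chi-square per gene 16.7). Members, lists and tests were chosen with earlier results of these data known. Named genes are all called members, the highest and lowest estimate and highest level in each complex, the isoform genes and called genes of the lists; any other gene was named after its values were seen. Single values of some members are not reported here. The sex comparison was added after seeing the data, and within groups it used log2 of the mean plus 0.5 CPM. The letters searched for NRF1 replaced a longer pattern tried first. Sequence overlap and positions are from GENCODE M21, where 87 of 87 names were found. The script was tested on simulated counts. Alternatives were DESeq2 1.42.0, the exact test, other scalings and filters, a length correction, sex, replicate blocks, each sex alone and each library left out.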

Additional observations from a re-analysis of the deposited data

Results flagged for a closer look

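Of 54 groups of 6 libraries examined for a single distant value, 4 held one where chance gives about 1 in 20, or 2.7. Control replicate 5 was high for *Uqcrb*, at 89.5 normalized CPM, the other Control libraries lying between 66.4 and 74.6. *Cox8b* was at 145 in iNICD replicate 6, against 110 to 123 in the other iNICD libraries. *Atp5g1* was at 20.8 in Control replicate 3, against 10.3 to 13.1. The median log2 deviation of complex IV was -0.23 in Control replicate 2, against -0.02 to 0.07 in the other Control libraries.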

How the results depend on the processing

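Over all alternatives the medians ran from 0.0348 to 0.107 for complex I, 0.0125 to 0.087 for complex II, 0.0648 to 0.16 for complex III, -0.0464 to 0.0594 for complex IV and 0.00754 to 0.0822 for complex V. The SD between Control libraries, 0.10 to 0.12, is about as large as or larger than the reported medians. It measures the spread of single libraries of both sexes, not the error of a difference between groups. By this measure the stability of the medians was not shown. Genes called higher among the subunits were 2 with library totals only, 2 with sex as a covariate, 0 in males only and 1 to 2 with a library left out; genes called lower were 0 in males only and 0 to 1 with a library left out. Over all genes, 615 were higher and 444 lower with DESeq2, 279 lower with the exact test, 8 higher and 0 lower in males only, and 252 to 486 higher and 90 to 310 lower with a library left out. Subunit genes higher in males were 39 with DESeq2, 0 with library totals only and 0 to 5 with a library left out.

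Libraries of equal number in both groups share only a number: their deviations correlated between -0.15 and 0.37. With the replicate block 332 genes were higher and 136 lower, 285 and 136 by the number of the descriptions, and *Ndufa8* (log2 fold change 0.49) and *Ndufa4* (-0.34) were the called subunits under both.

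Signs turned for these genes, none of them past the threshold: *Sdhb* to 0.0146 with library totals only (-0.0555 to 0.0309 with a library left out), *Uqcrb* to 0.0234 with library totals only and 0.00179 with the length correction (-0.0475 to 0.0539), *Cox6a1* between -0.15 and 0.0368, *Cox8a* to -0.19 and *Ndufa4l2* to -0.00671 in females only, *Atp5g1* to 0.65 in males only (-0.24 to 0.13), and *Atp5g3* to -0.0372 in females only and -0.0137 with sex as a covariate (-0.0124 to 0.0695). The causes were not tested. *Cox6b2*, *Cox7c* and *Atp5g2* had group means under 4 normalized CPM and standard errors of 0.24 to 0.26, and *Cox7c* and *Atp5g2* also share sequence with other annotated transcripts.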
